A study of Homo sapiens with 6 samples.

Results

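The RNA levels of 40 genes of glucose uptake, glycolysis, lactate handling, and its regulation by hypoxia-inducible factor (HIF) were examined in TC28a2 cells, an immortalized human chondrocyte line. The genes were taken by symbol from a table of 60623 genes, and *GAPDH* was 1 of them. Cells were treated for 24 hours with 2 μM mocetinostat, a class I histone deacetylase (HDAC) inhibitor, or with its solvent DMSO, and RNA-Seq was performed on 3 samples per condition that the study describes as independent experiments. Both conditions used the same line, so that every value below describes 1 immortalized line in culture. The DMSO-treated samples had 4873426 to 11031132 counts and the mocetinostat-treated ones 1619344 to 5089542 counts, so that the median library was shallower after treatment and sparse genes had a larger counting error. Of the 11 chondrocyte markers examined, *COL9A1*, *PRG4*, and *SOX6* had too few reads to be tested, and the other 8 were higher with mocetinostat at an adjusted *P* below 0.05. By this rule 32.9% of all genes tested were higher. The summed level of the 11 was 117 to 142 CPM (counts divided by library totals that edgeR's TMM factors adjust, per 1000000) with DMSO and 264 to 305 CPM with mocetinostat, while 3 fibroblast markers summed to 4497 to 5448 CPM and 4011 to 4376 CPM. Most of the fibroblast sum was *COL1A1*, while *COL3A1* fell (log2 fold change -1.35, adjusted *P* = 1.1e-24) and *COL1A2* rose from low levels (1.73, adjusted *P* = 4.33e-05). The 6 epithelial, endothelial, and blood markers summed to 5.45 to 8.12 CPM and 39.0 to 52.1 CPM. Of the 5 of them that were tested, 4 were also higher at an adjusted *P* below 0.05. The part of these markers in the results was not tested. In RNA from a whole culture, a change in the cells present and a change in RNA per cell cannot be told apart.

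In glycolysis, glucose enters through facilitative transporters, is phosphorylated and split into triose phosphates, and is oxidized to pyruvate with a net yield of ATP. Pyruvate can be reduced to lactate, which monocarboxylate transporters export. Articular cartilage has no blood vessels, and its chondrocytes rely largely on glycolysis for ATP. HIF proteins are transcription factors that induce many glycolytic genes in low oxygen, and prolyl hydroxylases mark their α subunits for degradation when oxygen is present. Many steps can be carried out by several isozymes that are encoded by separate genes.

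Mocetinostat changed the glycolysis genes in both directions: the HIF subunit *EPAS1*, the hydroxylase *EGLN3*, the enolase *ENO2*, and the transporters *SLC2A3*, *SLC2A4*, and *SLC2A12* rose by more than 2 on the log2 scale, while *GAPDH* and 9 other core enzymes fell by smaller amounts. Of the 40 genes, 34 passed edgeR's expression filter and were tested. At an adjusted *P* below 0.05 (edgeR quasi-likelihood test, Benjamini-Hochberg adjustment over 13966 genes), 13 were higher, 11 were lower, and 10 did not pass. Among all genes tested, 32.9% were higher and 31.4% were lower by the same rule, 64.3% in all. The conditions did not overlap, with mocetinostat higher, for 15 members, against 33.7% of all genes, and with mocetinostat lower for 11, against 32.8%. An absolute log2 fold change over 1 was also reached by 7 upregulated genes, 20.6% of the 34, against 20.2% of all genes. No member fell that far, against 8.18% of all genes, while DESeq2 also found 0 and 11 members were lower at an unadjusted *P* below 0.05 in edgeR. The share of upregulated genes was thus near that of the whole table. The median log2 fold change was 0.13 over the members tested and -0.0021 over all genes. The enzymes from hexokinase to lactate dehydrogenase were 22 genes, of which 18 were tested: 10 were lower, 4 were higher, and 4 did not pass, with a median of -0.24. With each library scaled to its *GAPDH* count in place of TMM, which moved the median of all genes to 0.53, 23 members were higher and 0 were lower. These *P* values measure only the spread between the samples, and the counting limits quoted cover counting error only. Values after ± are SDs of 3 samples.

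**Figure D1:**
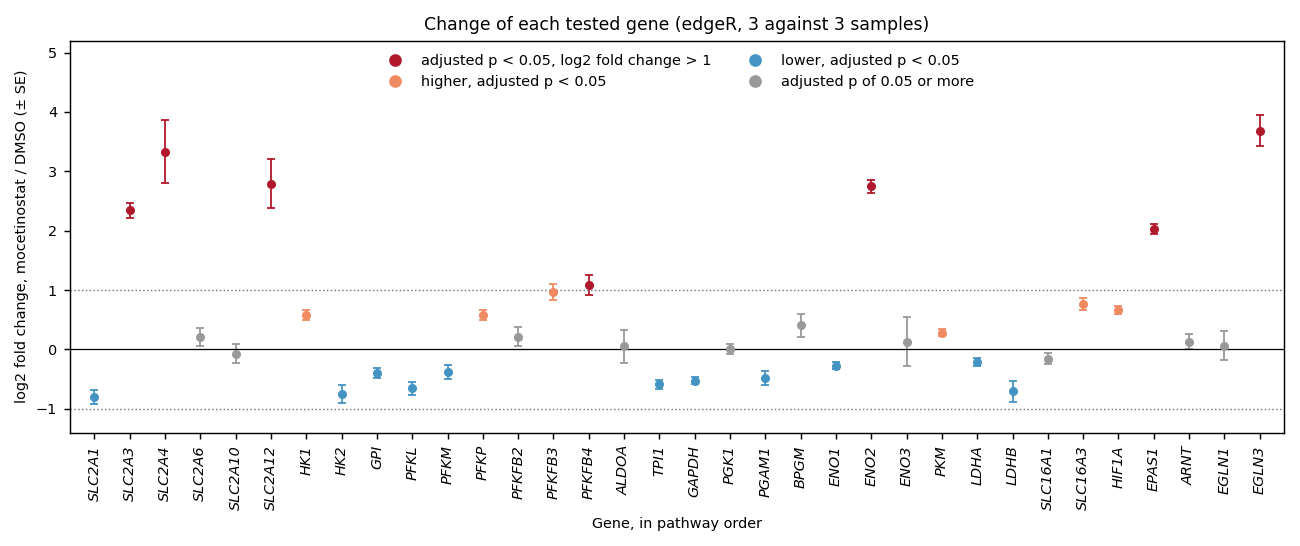
The log2 fold change (mocetinostat over DMSO, 3 samples each) of the 34 tested genes, in pathway order, with bars showing the SE of the edgeR fit and colors showing the outcome of the test. The 7 upregulated genes stand above 1, and none of the genes that fell is lower than -1.

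HIF dimers bind DNA at hypoxia response elements whose core is ACGTG in most cases and, in others, has G in place of its first base (GCGTG). The 250 bases upstream of each start were searched for both cores on both strands. RefSeq promoters (GRCh38.p14) were matched for 36 of the 40 genes, all but *SLC2A3*, *SLC2A4*, *PFKFB2*, and *SLC16A1*. At least 1 core was present in 22 of them (61.1%), against 58.0% of tested genes and 43.1% of all promoters. Taken singly, ACGTG was in 33.3% of the members, 23.5% of tested genes, and 18.7% of all promoters, and the second core in 36.1%, 46.1%, and 31.9%. By outcome, 3 of 5 upregulated members and 6 of 11 that fell had a core, numbers too small to compare. The following 5 promoters, chosen after counts and fold changes were seen, are printed for members that changed strongly and weakly, with matches to either core, on either strand, in capitals. The palindrome CACGTG is a match on both strands and counts as 2. *LDHA*, which fell slightly, has 5 matches to the first core, 2 of the sites being the palindrome, at chr11:18394313-18394562 (plus strand). *GAPDH* has 1 palindrome at chr12:6535014-6535263 (plus strand). *ENO1* has 2 matches to the second core at chr1:8878687-8878936 (minus strand). *ENO2*, which rose, has 1 match to the first core at chr12:6914330-6914579 (plus strand). *EGLN3*, which rose most, has no match in its window at chr14:33951075-33951324 (minus strand).
LDHA: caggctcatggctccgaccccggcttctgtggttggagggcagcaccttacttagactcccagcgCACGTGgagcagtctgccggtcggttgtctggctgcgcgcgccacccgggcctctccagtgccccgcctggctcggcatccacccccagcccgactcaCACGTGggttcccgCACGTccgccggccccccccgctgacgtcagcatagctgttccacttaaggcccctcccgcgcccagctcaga
GAPDH: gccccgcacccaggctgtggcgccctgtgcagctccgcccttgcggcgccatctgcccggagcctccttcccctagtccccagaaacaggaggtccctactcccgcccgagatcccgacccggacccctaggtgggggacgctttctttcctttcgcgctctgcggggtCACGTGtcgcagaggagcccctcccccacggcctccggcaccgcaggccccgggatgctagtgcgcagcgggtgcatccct
ENO1: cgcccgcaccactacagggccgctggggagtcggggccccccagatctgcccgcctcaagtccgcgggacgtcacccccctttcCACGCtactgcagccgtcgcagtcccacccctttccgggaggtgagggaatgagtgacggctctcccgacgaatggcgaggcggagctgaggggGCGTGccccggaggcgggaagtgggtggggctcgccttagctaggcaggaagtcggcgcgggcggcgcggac
ENO2: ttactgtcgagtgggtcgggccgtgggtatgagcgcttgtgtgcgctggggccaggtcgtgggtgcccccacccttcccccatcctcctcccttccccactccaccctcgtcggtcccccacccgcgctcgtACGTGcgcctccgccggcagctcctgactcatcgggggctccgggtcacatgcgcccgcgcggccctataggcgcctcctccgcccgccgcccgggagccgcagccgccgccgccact
EGLN3: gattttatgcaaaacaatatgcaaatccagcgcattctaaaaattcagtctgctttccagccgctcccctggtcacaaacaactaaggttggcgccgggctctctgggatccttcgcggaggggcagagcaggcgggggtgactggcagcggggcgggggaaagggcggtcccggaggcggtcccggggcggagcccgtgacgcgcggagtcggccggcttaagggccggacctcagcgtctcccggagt

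Among the glucose transporters, the most abundant one with DMSO fell and several others rose. *SLC2A1*, which encodes the basal transporter GLUT1, was at 98.0, 94.3, and 91.8 CPM in the DMSO-treated samples and 55.1, 54.5, and 53.9 CPM in the mocetinostat-treated samples. Its mocetinostat-treated samples lay below every DMSO-treated sample, and it fell (log2 fold change -0.80, SE 0.12, adjusted *P* = 1.48e-08). *SLC2A3*, which encodes the high-affinity transporter GLUT3, was at 29.0, 23.3, and 23.0 CPM in the DMSO-treated samples and 136, 125, and 125 CPM in the mocetinostat-treated samples. All treated samples were above all control samples, a 5.06-fold increase (log2 fold change 2.34, SE 0.12, adjusted *P* = 1.92e-27). *SLC2A4*, encoding the insulin-responsive transporter GLUT4, had 6, 5, and 3 counts in the 3 DMSO-treated samples and 28, 9, and 21 in the 3 treated ones. Although these counts were low, the conditions did not overlap in CPM, and the gene rose (log2 fold change 3.33, SE 0.52, adjusted *P* = 7e-08). *SLC2A12*, encoding GLUT12, had 24, 2, and 9 counts in the 3 DMSO-treated samples and 46, 19, and 26 in the 3 treated ones. The conditions did not overlap in CPM, and it rose (log2 fold change 2.79, SE 0.41, adjusted *P* = 1.2e-08). Its exons are covered over 51.2% of their length by *TBPL1* on the opposite strand, which also rose (log2 fold change 0.57, adjusted *P* = 0.00465), and the part of that overlap in the result was not tested. Its log2 fold change came to 3.40 when DMSO replicate 1 was left out. The intracellular transporters *SLC2A6* (log2 fold change 0.21, adjusted *P* = 0.239) and *SLC2A10* (log2 fold change -0.0713, adjusted *P* = 0.715) did not pass the test. The value of *SLC2A10* turned to 0.47 under *GAPDH* scaling and to 0.12 when libraries were scaled to 16 reference genes. Values per kb here divide by the joint length of all annotated exons of a gene, which can exceed that of its RNA. On this scale, the 6 transporters together were at 34.2 ± 0.329 CPM per kb with DMSO and 46.6 ± 0.751 CPM per kb with mocetinostat. *SLC2A1* made up 41.9% ± 1.25 (SD, *n* = 3) of this sum with DMSO and 17.7% ± 0.160 with mocetinostat, and *SLC2A3* 10.1% ± 1.30 and 38.0% ± 1.77, so that *SLC2A3* became the most abundant of the 6. *SLC2A3* has a near-identical copy, *SLC2A14*, and its reads are uncertain to that extent.

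At the first enzymatic steps, 1 hexokinase and 1 phosphofructokinase rose while the other tested isozymes fell. *HK1*, the widely expressed hexokinase that phosphorylates glucose, was at 181, 184, and 207 CPM in the DMSO-treated samples and 286, 290.0, and 277 CPM in the mocetinostat-treated samples. No sample of either condition overlapped the other, and *HK1* rose (log2 fold change 0.57, SE 0.0840, adjusted *P* = 1.05e-08). *HK2*, the inducible hexokinase of muscle and many cultured cells, fell (55.5 ± 7.46 CPM with DMSO and 31.8 ± 5.51 CPM with mocetinostat, log2 fold change -0.75, adjusted *P* = 5.58e-06). *HK3*, a hexokinase known from blood cells, had at most 5 counts in any sample and was not tested. *GPI*, the isomerase that turns glucose-6-phosphate into fructose-6-phosphate, was at 333, 311, and 286 CPM in the DMSO-treated samples and 239, 244, and 227 CPM in the mocetinostat-treated samples. The treated samples were lower without overlap, and *GPI* fell (log2 fold change -0.39, SE 0.0822, adjusted *P* = 2.54e-05), although under *GAPDH* scaling its value was 0.14. Of the phosphofructokinases, which commit the sugar to glycolysis, the platelet-type *PFKP* was at 218, 229.7, and 248 CPM in the DMSO-treated samples and 351, 366, and 326 CPM in the mocetinostat-treated samples. It rose in every treated sample compared with every control sample (log2 fold change 0.58, SE 0.0809, adjusted *P* = 2.48e-09). The liver-type *PFKL* (log2 fold change -0.65, adjusted *P* = 2.25e-07) and the muscle-type *PFKM* (log2 fold change -0.38, adjusted *P* = 0.00422) fell, with values of -0.12 and 0.15 under *GAPDH* scaling. *PFKM* did not pass with every library thinned to the lowest depth (-0.22, adjusted *P* = 0.186) or under reference gene scaling (-0.19, adjusted *P* = 0.154). As a share of phosphofructokinase per kb, *PFKP* went from 54.4% ± 0.0687 to 72.1% ± 2.12.

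The PFKFB enzymes make and remove fructose-2,6-bisphosphate, an allosteric activator of phosphofructokinase, and both members that passed the test rose. *PFKFB4*, a bifunctional form, was at 20.3, 20.8, and 19.3 CPM in the DMSO-treated samples and 38.9, 34.7, and 54.3 CPM in the mocetinostat-treated samples. The third treated sample was the highest, and the conditions did not overlap (log2 fold change 1.09, SE 0.17, adjusted *P* = 3.48e-08). This call rested on that sample, since the log2 fold change was 0.88 without it. *PFKFB3*, the form with the highest kinase activity and the highest level per kb of the family, was at 36.6, 39.4, and 35.4 CPM in the DMSO-treated samples and 72.4, 79.9, and 66.3 CPM in the mocetinostat-treated samples. It was higher in all treated samples but stayed under the fold threshold (log2 fold change 0.97, SE 0.13, adjusted *P* = 7.15e-10). *PFKFB2*, known from heart, did not pass (log2 fold change 0.21, adjusted *P* = 0.232), and *PFKFB1*, known from liver, had at most 7 counts and was not tested. Summed per kb, the family was at 12.5 ± 0.251 CPM per kb with DMSO and 22.7 ± 0.694 CPM per kb with mocetinostat, the ratio being 1.81.

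From aldolase to the mutases, the abundant enzymes fell or did not pass the test. *ALDOA*, the main aldolase that splits fructose-1,6-bisphosphate, had only 99, 59, and 49 counts in the 3 DMSO-treated samples and 46, 14, and 27 in the 3 treated ones (9.49 ± 2.57 CPM with DMSO and 9.66 ± 1.34 CPM with mocetinostat). Its conditions overlapped, and no difference passed (log2 fold change 0.0496, SE 0.28, adjusted *P* = 0.886). *ALDOA* shares 42.8% of its exon length with *AC093512.2* on the same strand, which had 44, 27, and 36 counts in the control samples and 25, 8, and 9 in the treated samples, and how reads in shared exons were treated is not given in the sources used here. *ALDOA* may therefore be undercounted, and its level and change are uncertain to that extent. *ALDOC*, the brain aldolase, had 0 to 28 counts and was not tested. *TPI1*, which interconverts the triose phosphates, was at 689, 722, and 774 CPM in the DMSO-treated samples and 495, 446, and 509 CPM in the mocetinostat-treated samples. All treated samples were lower than all controls, and *TPI1* fell (log2 fold change -0.59, SE 0.0727, adjusted *P* = 6.8e-11), with a value of -0.0617 under *GAPDH* scaling.

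*GAPDH*, which oxidizes glyceraldehyde-3-phosphate with NAD+ and is widely used as a loading control, was the most abundant member per kb. It had 34622, 14562, and 20037 counts in the 3 DMSO-treated samples and 10262, 3529, and 5093 in the 3 treated ones. After normalization these were 3132, 3032, and 2953 CPM in the DMSO-treated samples and 2034, 2187, and 2111 CPM in the mocetinostat-treated samples. The highest treated sample lay below the lowest control, and *GAPDH* fell to 0.694 of its control level (log2 fold change -0.53, SE 0.0590, adjusted *P* = 2.58e-12). Its decrease of 0.53 on the log2 scale did not reach the fold threshold. It took 0.289% to 0.314% of all counts with DMSO and 0.202% to 0.218% with mocetinostat, shares that use no normalization factor. The opposite-strand RNA *AC006064.4*, which covers 17.6% of its exon length, had at most 9 counts in a sample, and the 62 rows named as *GAPDH* pseudogenes together held at most 0.263% of the *GAPDH* count.

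*PGK1*, which makes the first ATP of the pathway, was at 342, 292, and 301 CPM in the DMSO-treated samples and 317, 334, and 288 CPM in the mocetinostat-treated samples. The conditions overlapped (log2 fold change 0.00216, SE 0.0810, adjusted *P* = 0.984). *PGAM1*, the mutase that moves the phosphate of phosphoglycerate, was at 99.2, 104, and 84.2 CPM in the DMSO-treated samples and 60.5, 75.6, and 73.8 CPM in the mocetinostat-treated samples. It fell without overlap (log2 fold change -0.48, SE 0.12, adjusted *P* = 0.000284), with a value of 0.0559 under *GAPDH* scaling, and 13 rows named as its pseudogenes held up to 9.02% of its count. *BPGM*, which makes bisphosphoglycerate, was at 17.5 ± 2.33 CPM with DMSO and 23.4 ± 5.38 CPM with mocetinostat and did not pass the test (log2 fold change 0.41, adjusted *P* = 0.0609), although it passed under 7 of the alternatives, among them thinning to the smallest total (0.76, adjusted *P* = 0.0101) and each fit without DMSO replicate 3 (0.49, adjusted *P* = 0.0372) or mocetinostat replicate 3 (0.55, adjusted *P* = 0.0186). *PGAM2*, the muscle mutase, had 0 counts in all 6 samples, which allows up to 0.272 CPM in the deepest library and 1.85 CPM in the shallowest one. The exons of *PGAM2* lie wholly within those of *DBNL* on the opposite strand. These limits hold only if *PGAM2* reads could be assigned to it, and whether counting used strand is not given.

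The enolases, which form phosphoenolpyruvate, showed the largest shift in log2 ratio among the pairs of glycolytic enzymes. *ENO2*, the isozyme known as neuron-specific enolase, had 364, 174, and 239 counts in the 3 DMSO-treated samples and 1064, 440, and 530 in the 3 treated ones, or 32.9, 36.2, and 35.2 CPM in the DMSO-treated samples and 211, 273, and 219.6 CPM in the mocetinostat-treated samples. Every treated sample was far above every control, a 6.70-fold increase (log2 fold change 2.74, SE 0.11, adjusted *P* = 7.26e-35). *ENO1*, the ubiquitous enolase, was at 1594, 1656, and 1719 CPM in the DMSO-treated samples and 1387, 1379, and 1349 CPM in the mocetinostat-treated samples. It fell without overlap (log2 fold change -0.27, SE 0.0625, adjusted *P* = 0.000116), but its value was 0.25 under *GAPDH* scaling and -0.0828 under reference gene scaling (adjusted *P* = 0.260). *ENO3*, the muscle enolase, was at 3.79 ± 0.872 CPM with DMSO and 4.27 ± 1.60 CPM with mocetinostat and did not pass (log2 fold change 0.13, adjusted *P* = 0.796). Per kb, *ENO2* was 2.49% ± 0.0880 of enolase RNA with DMSO and 17.1% ± 1.95 with mocetinostat. The enolase sum, 327 ± 12.1 CPM per kb with DMSO and 319 ± 9.71 CPM per kb with mocetinostat, moved by less than this, with a ratio of 0.976.

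At the end of the pathway, pyruvate kinase RNA rose and both lactate dehydrogenases fell. *PKM*, the pyruvate kinase of most tissues, was at 2275, 2363, and 2414 CPM in the DMSO-treated samples and 2832, 2848, and 2868 CPM in the mocetinostat-treated samples. It was higher in all treated samples and rose (log2 fold change 0.28, SE 0.0584, adjusted *P* = 2.8e-05), but without an expression filter its value was 0.0242 (adjusted *P* = 0.792). That setting, with 40504 genes and a median of 0.25, lowered other members too, such as *GPI* from -0.39 to -0.65. *PKLR*, the liver and red cell form, had 1 count at most and was not tested. *LDHA*, the subunit that favors lactate formation, was at 626, 588, and 550.2 CPM in the DMSO-treated samples and 513, 510.0, and 501 CPM in the mocetinostat-treated samples. It fell slightly and without overlap (log2 fold change -0.21, SE 0.0724, adjusted *P* = 0.00857), with a value of 0.32 under *GAPDH* scaling. The call was lost with 10 counts required in every sample (-0.13, adjusted *P* = 0.102), with every library thinned to the lowest depth (-0.11, adjusted *P* = 0.251), and under reference gene scaling (-0.0222, adjusted *P* = 0.807). *LDHB*, the heart-type subunit, was at 35.6 ± 6.02 CPM with DMSO and 21.2 ± 6.09 CPM with mocetinostat and fell (log2 fold change -0.71, adjusted *P* = 0.000299). Of its exon length, 33.4% is shared with *AC010197.2* on the same strand, which had at most 4 counts. Reads in the shared exons may have been given to neither gene, so the level of *LDHB* is uncertain to that extent.

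Of the lactate exporters, *SLC16A1*, encoding MCT1, was the more abundant per kb at 186, 157, and 178 CPM in the DMSO-treated samples and 155, 162, and 155 CPM in the mocetinostat-treated samples. Its conditions overlapped and it did not pass (log2 fold change -0.15, SE 0.0921, adjusted *P* = 0.141), and the value changed sign under *GAPDH* scaling (0.38, adjusted *P* = 0.000962) and reference gene scaling (0.0358). *SLC16A1* passed as lower without a filter (-0.41, adjusted *P* = 0.000174) and with GC and length trends removed (-0.18, adjusted *P* = 0.0420). It also did so without DMSO replicate 2 (-0.25, adjusted *P* = 0.0400). *SLC16A3*, encoding MCT4, the exporter of highly glycolytic cells, was at 92.7 ± 8.36 CPM with DMSO and 156 ± 11.1 CPM with mocetinostat and rose (log2 fold change 0.76, SE 0.10, adjusted *P* = 5.67e-10). Its share of the exporters per kb went from 26.9% ± 3.44 to 40.5% ± 1.75. With mocetinostat, mean CPM was similar for *SLC16A1* (157) and *SLC16A3* (156), so that their order per kb rested on the exon lengths.

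**Figure D2:**
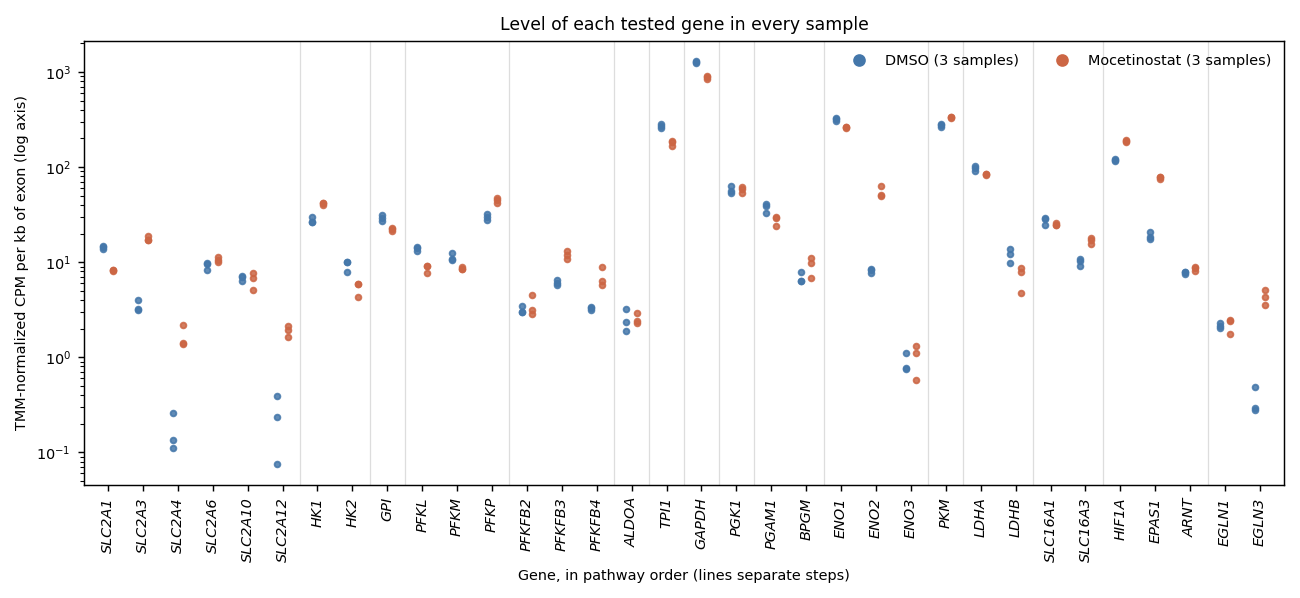
The level of each tested gene in every sample, as TMM-normalized CPM per kb of exon on a log axis, in pathway order, with 3 DMSO-treated and 3 mocetinostat-treated samples. *GAPDH* is the highest gene in every sample, and the conditions separate most widely for *SLC2A3*, *SLC2A4*, *SLC2A12*, *ENO2*, *EPAS1*, and *EGLN3*.

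Among the HIF genes, *EPAS1* and *EGLN3* rose most. *EPAS1*, encoding HIF-2α, was at 128, 134, and 152 CPM in the DMSO-treated samples and 572, 567, and 546 CPM in the mocetinostat-treated samples. All treated samples were about the same and well above all controls, a 4.07-fold increase (log2 fold change 2.02, SE 0.0814, adjusted *P* = 1.86e-34). *HIF1A*, encoding HIF-1α and the most abundant HIF subunit per kb, was at 629.6, 614, and 596 CPM in the DMSO-treated samples and 969, 946, and 1001 CPM in the mocetinostat-treated samples. It also rose without overlap, under the fold threshold (log2 fold change 0.66, SE 0.0680, adjusted *P* = 8.87e-14). *ARNT*, encoding HIF-1β, the common partner of the α subunits, was at 50.3 ± 1.36 CPM with DMSO and 54.8 ± 3.01 CPM with mocetinostat and did not pass (log2 fold change 0.13, adjusted *P* = 0.369). *HIF3A*, encoding HIF-3α, had at most 5 counts and was not tested.

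*EGLN3*, encoding the prolyl hydroxylase PHD3 and itself a known HIF target, had 24, 17, and 14 counts in the 3 DMSO-treated samples and 159, 42, and 90 in the 3 treated ones, or 2.17, 3.54, and 2.06 CPM in the DMSO-treated samples and 31.5, 26.0, and 37.3 CPM in the mocetinostat-treated samples. Its window of 250 upstream bases held neither HIF core, and sites outside that window were not searched. The lowest treated sample was above the highest control, a 12.8-fold increase and the largest among the members tested (log2 fold change 3.68, SE 0.26, adjusted *P* = 5.19e-21). *EGLN1*, encoding PHD2, the main oxygen sensor of this family, was at 11.4, 11.0, and 12.2 CPM in the DMSO-treated samples and 13.3, 13.0, and 9.53 CPM in the mocetinostat-treated samples. The conditions overlapped, and no difference passed (log2 fold change 0.0608, SE 0.24, adjusted *P* = 0.840). *EGLN1* shares 55.8% of its exon length with *AL445524.2* on the same strand, which had 0 counts in every sample. How reads in shared exons were treated is not given, so *EGLN1* may be undercounted. Its level against *EGLN3* is uncertain to that extent. *EGLN3* was 14.1% ± 4.31 of the summed hydroxylase RNA per kb with DMSO and 65.6% ± 7.60 with mocetinostat.

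The ratio of 2 related genes within a library does not depend on scaling between libraries, and 12 pairs were compared on counts per exon length. Exon length cancels from the change of a ratio between conditions but not from its sign. In 8 pairs the conditions did not overlap. Among all genes tested, taken singly, they did not overlap for 33.7% with mocetinostat higher and for 32.8% with mocetinostat lower. The share among other pairs of genes was not computed, so the count of 8 is not a trait of these pairs. The log2 ratio of *ENO1* to *ENO2* was 5.31, 5.23, and 5.32 with DMSO and 2.43, 2.05, and 2.33 with mocetinostat, and that of *SLC2A1* to *SLC2A3* was 1.89, 2.14, and 2.13 with DMSO and -1.17, -1.05, and -1.08 with mocetinostat, a change from an excess of *SLC2A1* to an excess of *SLC2A3*. The ratio of *EGLN1* to *EGLN3* also changed sign in every sample (2.82, 2.06, and 2.98 with DMSO and -0.79, -0.53, and -1.49 with mocetinostat). Its sign rests on the *EGLN1* count, whose limit is given above. *HK1* to *HK2* moved by 1.38, while *PFKL* to *PFKP* (-1.26), *PFKM* to *PFKP* (-0.96), *SLC16A1* to *SLC16A3* (-0.89), and *HIF1A* to *EPAS1* (-1.36) moved down. These 8 pairs reached the smallest *P* that 3 samples against 3 allow in an exact two-sided permutation test (*P* = 0.1, Benjamini-Hochberg adjusted *P* = 0.15 over 12 pairs), so that no pair could pass 0.05. The conditions overlapped for *LDHA* to *LDHB*, *PGAM1* to *BPGM*, *PFKFB3* to *PFKFB4*, and *ALDOA* to *ALDOC*.

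**Figure D3:**
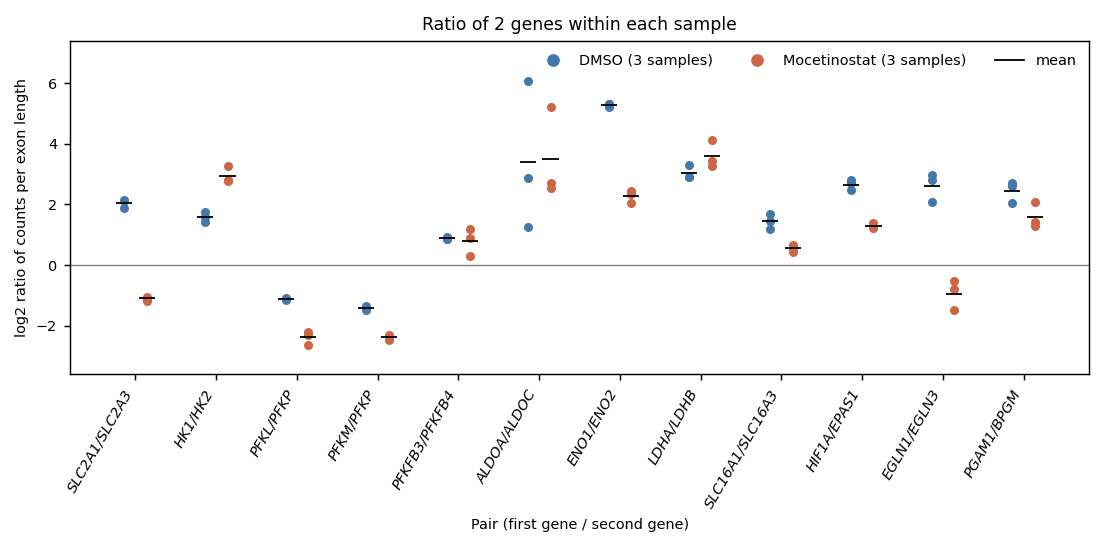
The log2 ratio of counts per exon length of 12 pairs in each of the 6 samples, with lines at the mean of the 3 samples per condition. The conditions separate in 8 pairs, most widely for *EGLN1* to *EGLN3*, *SLC2A1* to *SLC2A3*, and *ENO1* to *ENO2*.

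Summed over the pathway, the enzymes from hexokinase to lactate dehydrogenase took 0.970% to 0.986% of all counts with DMSO and 0.889% to 0.913% with mocetinostat. These ranges did not overlap, and *GAPDH* made up 29.8% to 31.8% of the enzyme counts with DMSO and 22.7% to 23.9% with mocetinostat. *GAPDH* alone took 0.289% to 0.314% of all counts with DMSO and 0.202% to 0.218% with mocetinostat. Its share fell by more than that of the whole sum, so that the other enzymes together did not fall. Including the transporters and HIF genes, all 40 members took 1.10% to 1.12% and 1.13% to 1.15%. Per kb of exon, the order of the most abundant members with DMSO was *GAPDH* (1268 ± 37.5 CPM per kb), *ENO1* (318 ± 12.0), *PKM* (274 ± 8.17), and *TPI1* (269.8 ± 15.9), of which *PKM* and *TPI1* did not differ beyond their spread. With mocetinostat it was *GAPDH* (881 ± 31.8), *PKM* (332 ± 2.09), *ENO1* (263 ± 3.86), and *HIF1A* (189 ± 5.38), which lay within the spread of *TPI1* (179 ± 12.3).

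The study normalized its qPCR to *GAPDH*, much of it in other cells and at other doses than those examined here. The level of *GAPDH* in the TC28a2 cells was set beside 16 other genes in use as references. Of these, 3 were higher, 6 were lower, and 7 did not pass at an adjusted *P* below 0.05 (18.8% higher and 37.5% lower, against 32.9% and 31.4% of all genes tested), with a median log2 fold change of -0.11. *POLR2A*, the largest subunit of RNA polymerase II, was the only one past the fold threshold (log2 fold change -1.01, SE 0.0813, adjusted *P* = 2.78e-18), but 0 were past it with RLE factors, with library size alone, or without DMSO replicate 3. Within each library, the ratio of *GAPDH* to the reference was on average lower after mocetinostat for 13 of the 16, without overlap for 10. For *ACTB*, which encodes β-actin, the mean log2 ratio moved by -0.75, and for *B2M*, the class I light chain, by -0.67. The ratio was higher without overlap for *TBP* (0.34), *IPO8* (0.36), and *POLR2A* (0.49). In exact two-sided permutation tests no ratio could go below *P* = 0.1 (Benjamini-Hochberg adjusted *P* = 0.123 over 16 ratios). *PGK1*, another gene in use as a reference, was closest to no change among the members under TMM scaling (0.00216). This rested on the scaling. *PGK1* passed the edgeR test as higher under reference gene scaling (0.19, adjusted *P* = 0.0382) and *GAPDH* scaling (0.53, adjusted *P* = 2.39e-06). Without an expression filter it passed as lower (-0.25, adjusted *P* = 0.0141).

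**Figure D4:**
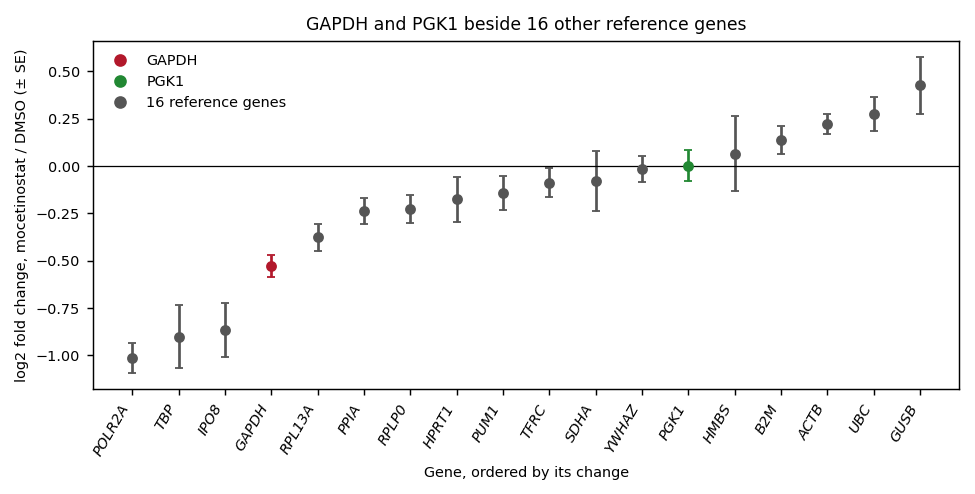
The log2 fold change (mocetinostat over DMSO, 3 samples each, bars showing the SE of the edgeR fit) of *GAPDH*, *PGK1*, and 16 reference genes, ordered by value. *GAPDH* is at -0.53 and *PGK1* at 0.00216.

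Scaling to *GAPDH* raised every member by about the fall of *GAPDH* itself. Of the 11 members that were lower under TMM, *GAPDH* became 0 by construction, 5 were higher, 2 of them past the test, and 5 were still lower without passing it. Those higher and past the test were *ENO1* (0.25) and *LDHA* (0.32). All 13 members that were higher under TMM were also higher and past the test with RLE size factors and with library size alone. With the 16 reference genes as the scale, which moved the median of all genes to 0.18, 8 of the 11 were lower and past the test and the other 3 were lower without passing. Members higher and past the test went from 13 to 18. Those added were *SLC2A6* (0.39, adjusted *P* = 0.0223), *PFKFB2* (0.40, adjusted *P* = 0.0250), *PGK1* (0.19, adjusted *P* = 0.0382), *BPGM* (0.59, adjusted *P* = 0.00735), and *ARNT* (0.32, adjusted *P* = 0.0249).

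**Figure D5:**
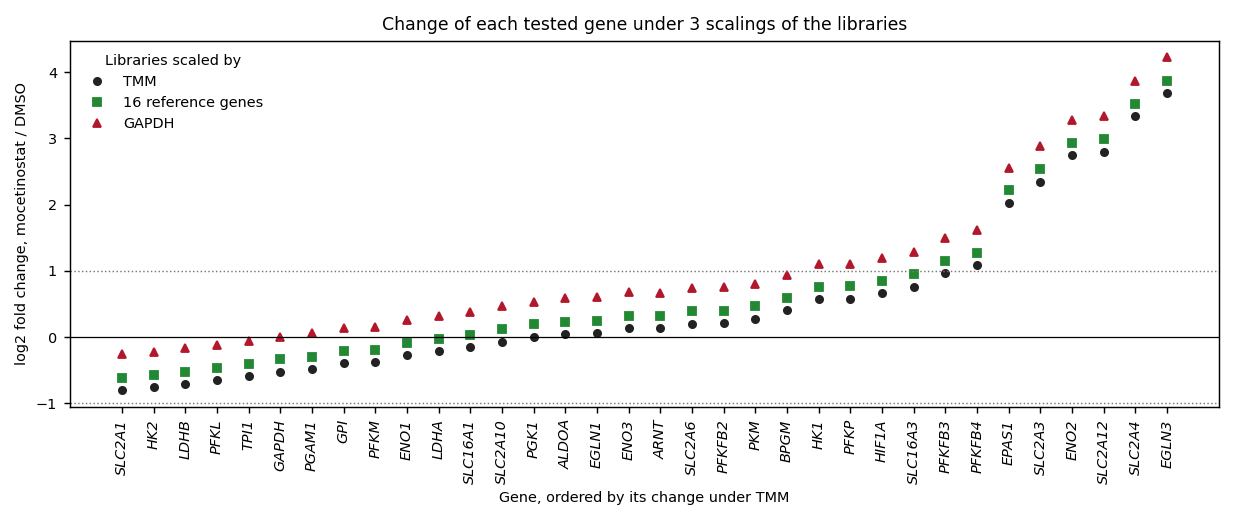
The log2 fold change of each tested gene with libraries scaled by TMM, by 16 reference genes, or by *GAPDH*, ordered by the TMM value. Under *GAPDH* scaling *GPI*, *PFKM*, *PGAM1*, *ENO1*, *LDHA*, *SLC16A1*, and *SLC2A10* lie above 0, and under TMM they lie below it.

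A list of 40 other genes of glycolysis, sugar and lactate transport, gluconeogenesis, and the pentose phosphate branch had 23 members tested, of which 10 were higher, 4 were lower, and 9 did not pass, with a median of 0.29. The shares higher and lower were 43.5% and 17.4%, against 32.9% and 31.4% of all genes tested. Upregulation past the fold threshold was reached by 4 genes, 17.4% of those tested, against 20.2% of all genes, and *SLC16A7*, *HKDC1*, and *ARRDC4* were among them. *SLC16A7*, encoding the monocarboxylate transporter MCT2, rose from low levels (0.724, 1.04, and 0.884 CPM with DMSO and 7.93, 13.6, and 7.05 CPM with mocetinostat, log2 fold change 3.39, SE 0.47, adjusted *P* = 2.6e-09). *HKDC1*, a hexokinase domain protein (log2 fold change 3.16, SE 0.52, adjusted *P* = 2.04e-07), and *ARRDC4*, an arrestin of the family that curbs glucose uptake (log2 fold change 1.60, SE 0.33, adjusted *P* = 2.03e-05), rose as well.

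Of 30 HIF partners and known HIF targets outside glycolysis, all tested, 14 were higher, 3 were lower, and 13 did not pass, with a median of 0.34. The share higher was 46.7%, against 32.9% of all genes tested. The 3 that were lower were a smaller share of this list than the 31.4% found among all genes tested. Upregulation past the fold threshold was found for 9 (30.0%), against 20.2% of all genes. *ANGPTL4*, an inhibitor of lipoprotein lipase, was at 12.6, 14.4, and 12.4 CPM with DMSO and 218, 240.4, and 208 CPM with mocetinostat (log2 fold change 4.09, SE 0.12, adjusted *P* = 2.77e-42). *CITED2*, a transcriptional coregulator that competes with HIF-1α for its coactivators, rose from 78.0 to 384 CPM (log2 fold change 2.30, SE 0.0900, adjusted *P* = 4.56e-35). *NDRG1*, a stress-responsive gene (log2 fold change 2.78, SE 0.11, adjusted *P* = 1.51e-34), and *CA12*, a membrane carbonic anhydrase (log2 fold change 2.26, SE 0.12, adjusted *P* = 1.04e-26), also rose without overlap between conditions. *PDK1*, a kinase that inhibits pyruvate dehydrogenase, did not pass (log2 fold change -0.28, SE 0.17, adjusted *P* = 0.147), and neither did the carbonic anhydrase *CA9* (log2 fold change 1.12, SE 0.56, adjusted *P* = 0.0723) or the mitophagy gene *BNIP3* (log2 fold change 0.0120, SE 0.15, adjusted *P* = 0.951). The last 3 genes were chosen after their values were seen.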

How the data were processed

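RNA-Seq was performed in TC28a2 cells treated with mocetinostat or DMSO (3 samples each). The authors deposited whole raw counts of reads per gene, without normalization. Per the study's methods, libraries came from fragmented total RNA, and single reads were taken after ribosomal depletion of the amplified libraries. Adapters were trimmed, ribosomal reads were removed with SortMeRNA, and reads were aligned to GRCh38 with STAR version 2.6.1d and assigned to genes with featureCounts version 1.6.4 (versions also in the submitters' processing notes). Whether counting used strand, and how reads shared by several genes were treated, is not given in the sources used here, so that genes with overlapping or near-identical genes, such as *PGAM1* and *PGAM4*, are uncertain to that extent.

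Totals ranged from 1619344 to 11031132 counts. edgeR 4.0.16 (limma 3.58.1, R 4.3.3) was run with TMM factors on the 13966 of 60623 genes that filterByExpr kept (minimum count 10) and tested treatment alone with the quasi-likelihood test and Benjamini-Hochberg adjustment. A gene was upregulated or downregulated at an adjusted p below 0.05 and an absolute log2 fold change over 1. Reads carry no molecular identifiers. Exon lengths and overlaps are from GENCODE release 44. A length covers every annotated exon of a gene, over all its transcripts, and can exceed that of the RNA present. Orders, shares, and signs of ratios between genes per kb are uncertain to that extent. Ratios of gene pairs used counts plus 0.5 and an exact two-sided permutation test (scipy 1.17.1). Alternatives were DESeq2 1.42.0, RLE factors, library size, *GAPDH* and reference gene scaling, no filter, 10 counts in every sample, glmTreat, the replicate block, thinning, GC and length trends removed, and each sample left out.

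Named with full values are the 7 upregulated members, *GAPDH*, the member highest per kb at each step, and the 4 called genes of smallest p in each other list (all, if fewer). The values of 1 gene that this rule names are not reported here. The members, lists, and pairs were chosen with earlier results of these data known. The qPCR, protein, and mouse data of the study were not analysed here.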

Additional observations from a re-analysis of the deposited data

How the results depend on the processing

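Counts of upregulated members ranged from 6 to 12 over 17 alternatives, 12 with *GAPDH* scaling, and no member was downregulated except 2 without an expression filter. *GAPDH* scaling gave 23 members higher and 0 lower at the adjusted p threshold. It set *GAPDH* to 0 by construction, and glmTreat against a log2 fold change of 1 left *GAPDH* at -0.53 with an adjusted p of 1. Upregulated other isoforms and regulators numbered 9 with *GAPDH* scaling, 2 with 10 counts in every sample, and 4 to 7 with a sample left out (7 without DMSO replicate 2). Upregulated HIF pathway genes numbered 5 with glmTreat. Downregulated reference genes numbered 0 with RLE factors, library size, *GAPDH* scaling, reference gene scaling, 10 counts, glmTreat, or thinning, 3 without a filter, and 0 to 2 with a sample left out (2 without DMSO replicate 2, 0 without DMSO replicate 3). *PFKFB4* lost its call with glmTreat (adjusted p = 0.493), without a filter (0.83), and without mocetinostat replicate 3 (0.88), while *SLC2A4* and *SLC2A12* were not tested with 10 counts in every sample and *SLC2A4* was also not tested with thinning. At the adjusted p threshold, reference gene scaling lost *PFKM*, *ENO1*, and *LDHA*, thinning lost *PFKM* and *LDHA*, 10 counts lost *LDHA*, and no filter lost *PKM* (0.0242). Reference gene scaling gained *SLC2A6*, *PFKFB2*, *PGK1*, and *ARNT* as higher, and no filter gained *PGK1* and *SLC16A1* as lower. *BPGM* passed under 7 alternatives (0.46 to 0.94): *GAPDH* and reference gene scaling, 10 counts, thinning, GC and length trends removed, and without DMSO replicate 3 or mocetinostat replicate 3.

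Log2 fold changes that turned sign with *GAPDH* scaling were *SLC2A10* 0.47, *GPI* 0.14, *PFKM* 0.15, *PGAM1* 0.0559, *ENO1* 0.25, *LDHA* 0.32, and *SLC16A1* 0.38, and with reference gene scaling *SLC2A10* 0.12 and *SLC16A1* 0.0358. Without a filter they were *SLC2A6* -0.0455, *PFKFB2* -0.0335, *ALDOA* -0.20, *PGK1* -0.25, *ENO3* -0.12, *ARNT* -0.12, and *EGLN1* -0.19. Running without a filter also lowered members that kept their sign, such as *HK1* (0.57 to 0.32). With thinning they were *ALDOA* -0.11, *SLC16A1* 0.0449, and *EGLN1* -0.0174, with 10 counts *SLC2A10* 0.00760, and with DESeq2 *PGK1* -0.0337. With a sample left out the range was -0.18 to 0.0570 for *SLC2A10*, -0.0754 to 0.34 for *PFKFB2*, -0.13 to 0.21 for *ALDOA*, -0.0759 to 0.0557 for *PGK1*, -0.0390 to 0.36 for *ENO3*, and -0.0796 to 0.18 for *EGLN1*. The log2 ratio difference of *PFKFB3* to *PFKFB4* was -0.29 to 0.17 with a sample left out (0.17 without mocetinostat replicate 3), and that of *ALDOA* to *ALDOC* was -0.99 to 1.43, and -0.36 with 5 added to each count. Apart from settings where construction shows it, the cause was not tested.

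The replicate block left 7 upregulated and 0 downregulated members, the counts without it, and changed no other call named here. Samples of the same number had correlations of 0.00779, 0.0116, and -0.0162 in their deviations from the condition means. Those of different number had -0.0281 to 0.0255. Counting error in sparse genes lowers such correlations, so they cannot show whether the numbers pair the samples. The smallest library, with 1619344 counts, limits genes of few reads.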
